A study of Mus musculus with 18 samples.

Results

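The mitosis genes described here are 40 genes that act from entry into mitosis to the separation of the daughter cells. Earlier results of these data, with a contrast between bone marrow and testes, were known when this group was picked. The 40 genes were chosen by function and matched by mouse symbol to 40 of the 37620 gene IDs in the count tables. They comprise 6 cyclin, CDK1 and CDC25 phosphatase genes, 7 other mitotic kinase genes, 6 genes of the spindle checkpoint and anaphase machinery and 8 of the kinetochore and chromosomal passenger complex. The others are 8 spindle kinesin and spindle assembly genes, 3 cytokinesis genes and 2 genes of mitotic chromosome structure. All 40 passed the filter on low counts in each of the 3 tissues.

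PolyA RNA-seq was measured in 18 mouse libraries, 2 in each of 9 groups formed by 3 genotypes and 3 tissues. H3 K36M and H3 K9M mice carried inducible histone H3 mutations that put methionine in place of the named lysine, and WT mice were labelled wildtype. All were C57B6/129 hybrid mice of 6 to 8 weeks, of both sexes over the study, and all are described as induced with 2 mg/ml doxycycline in drinking water. The tissues were lineage-negative, cKit-positive bone marrow cells (stem and progenitor cells, called progenitors below), intestine and testes. Marrow came from mice K36M.1310, K36M.1312, K9M.1362, K9M.1363, WT.1262 and WT.1266, named as in the labels. Intestine and testes were both taken from another 6 mice, K36M.1485, K36M.1553, K9M.1516, K9M.1519, WT.1476 and WT.1477. The promoter that drove the mutant histone, the length of induction and whether WT mice carried any transgene are not given in the sources used here.

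Cells enter mitosis when cyclin-dependent kinase 1, bound to a B-type or A-type cyclin, is activated by CDC25 phosphatases. Polo and Aurora kinases then drive spindle assembly, the spindle checkpoint holds back the anaphase-promoting complex until all kinetochores are attached, and separase cuts cohesin once securin is destroyed. Transcripts of these genes peak together late in the cell cycle, so their level in bulk tissue is widely read as a sign of dividing cells. In testes many of the same proteins also serve the meiotic divisions of spermatocytes. Histone H3 carrying methionine in place of a lysine is known to lower methylation at that lysine across the genome.

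Between 13396303 and 21417915 reads were counted in genes per library, and levels are given as counts-per-million (CPM) scaled by TMM factors within each tissue. The sorted receptor gene Kit was present in all marrow libraries, at 294 and 296 CPM in K36M, 499.7 and 492 CPM in K9M and 436 and 457 CPM in WT progenitors. None of the 9 enterocyte markers was at 0 in an intestine library and none of the 13 spermatocyte markers in a testes library. The enterocyte markers summed to 47160 to 67810 CPM in intestine libraries and to 5.52 to 14.49 CPM in marrow and testes libraries. The spermatocyte markers summed to 699.5 to 3047 CPM in testes libraries and to 11.35 to 34.21 CPM in marrow and intestine libraries. The counts per gene cannot check the histone mutation itself. Replicates differed beyond sampling noise in every group, from 2.26 times the counting variance in WT testes to 59.1 times in K36M intestine. P-values below rest on 2 mice per group, with a spread shared by all groups of a fit. Those of K36M against WT therefore also draw on the K9M mice. In bulk RNA, fewer cells of a type and less RNA per cell cannot be told apart.

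The promoters of the members shared features that played no role in choosing them. RefSeq windows (GRCm38.p6) of 250 bases before to 50 bases after the transcription start were at hand for 33 of the 40 members; Ccna2, Cdc25c, Kif20a, Aurkb, Incenp, Spc24 and Tpx2 had none. The cell cycle genes homology region (CHR, searched as TTTGAA and TTCGAA on both strands) is the element through which the DREAM complex is known to act, and the CCAAT box is the site of the factor NF-Y. A CHR match was found in 25 of 33 member windows (75.8%), against 21.7% of the 27025 genes with a window. A CCAAT match was also found in 25 (75.8%), against 41.1% of all genes, and 16 members (48.5%) held at least 2, against 13.3%. Both motifs lay in 1 window for 22 members (66.7%), against 8.61% of all genes. E2F-type letters (TTTGGCG or TTTCGCG or TTTCCCG) were found in 3 members (9.09%), against 6.38% of all genes. Within 50 bases of the start, a range picked after the positions were seen, 23 members (69.7%) held a CHR match, against 6.12% of all genes. In the 200 bases before the start the shares were 39.4% of members and 15.4% of all genes for CHR, and 75.8% and 32.7% for CCAAT.

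Stretches of 150 bases from 7 members, 100 before to 50 after the start, are shown with CHR and CCAAT matches (on either strand) in capitals. The first 4 are genes of the mitotic core with both motifs, Nek2 is the member whose K36M effect differed most between marrow and testes, Kif2c was called higher in K36M marrow and testes, and Pttg1 was called lower in both.
Ccnb2 (chr9:70421505-70421654, minus strand): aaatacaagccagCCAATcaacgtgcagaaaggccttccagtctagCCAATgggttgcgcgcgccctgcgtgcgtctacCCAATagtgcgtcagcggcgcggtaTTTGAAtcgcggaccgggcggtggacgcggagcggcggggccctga
Cdk1 (chr10:69352863-69353012, minus strand): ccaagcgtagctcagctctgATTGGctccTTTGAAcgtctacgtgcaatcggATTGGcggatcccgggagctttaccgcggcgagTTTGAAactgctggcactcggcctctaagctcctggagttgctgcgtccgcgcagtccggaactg
Cdc20 (chr4:118437294-118437443, minus strand): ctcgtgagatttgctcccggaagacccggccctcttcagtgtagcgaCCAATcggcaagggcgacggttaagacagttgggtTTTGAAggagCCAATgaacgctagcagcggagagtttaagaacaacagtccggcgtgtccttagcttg
Plk1 (chr7:122159335-122159484, plus strand): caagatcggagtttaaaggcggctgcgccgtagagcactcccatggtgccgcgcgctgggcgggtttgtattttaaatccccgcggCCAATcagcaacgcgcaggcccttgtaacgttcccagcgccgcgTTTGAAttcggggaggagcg
Nek2 (chr1:191821373-191821522, plus strand): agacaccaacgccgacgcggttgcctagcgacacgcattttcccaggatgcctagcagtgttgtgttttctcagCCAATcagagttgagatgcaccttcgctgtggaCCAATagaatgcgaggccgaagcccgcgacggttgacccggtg
Kif2c (chr4:117178723-117178872, minus strand): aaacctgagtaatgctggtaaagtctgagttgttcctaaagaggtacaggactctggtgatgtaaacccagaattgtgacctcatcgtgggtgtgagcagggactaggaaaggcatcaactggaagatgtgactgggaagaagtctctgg
Pttg1 (chr11:43425932-43426081, minus strand): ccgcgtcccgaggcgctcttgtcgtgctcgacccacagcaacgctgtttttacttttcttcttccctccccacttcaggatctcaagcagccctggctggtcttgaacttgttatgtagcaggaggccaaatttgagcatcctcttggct
Nek2 held CCAAT matches at positions -26 and 7 from its start and no CHR match. The only match of Kif2c, a CHR that begins at -103, straddles the edge of the stretch shown and so has no capitals there. Pttg1 had neither motif in its whole window. These are matches of letters, not sites shown to be bound.

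**Figure D1:**
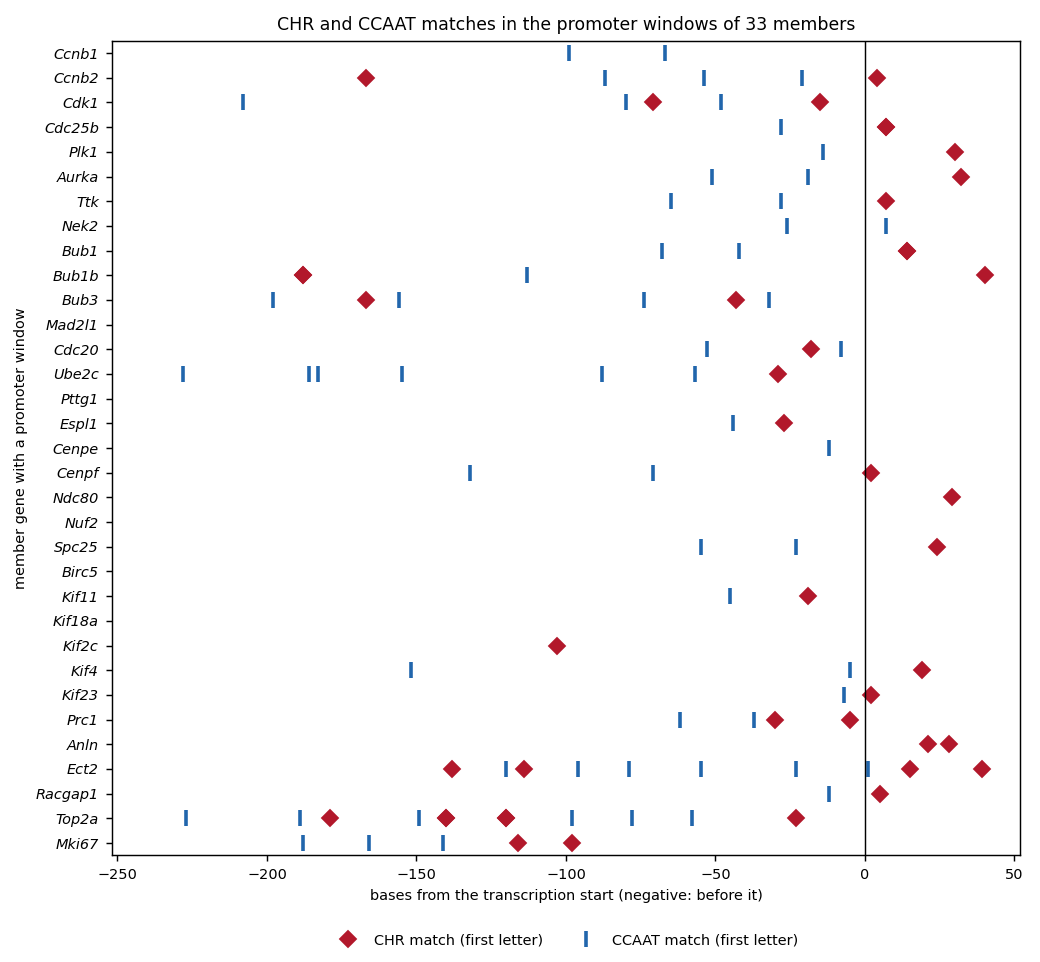
Positions of CHR matches (red diamonds) and CCAAT matches (blue bars) in the promoter windows of 33 members, with bases from the transcription start on the x axis. CHR matches of 23 members lie within 50 bases of the start, and CCAAT matches lie mostly in the 100 bases before it.

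In WT mice the summed level of the members was highest in marrow. Levels in different tissues were scaled separately, so they are set side by side without a test. The 40 members together summed to 7218 and 7313 CPM in WT progenitors, 562 and 237 CPM in WT intestine and 3323 and 3300 CPM in WT testes. Each member was higher in WT progenitors than in WT intestine, by 2.15-fold for Pttg1 to 45.4-fold for Espl1, with a median of 18.4-fold. Against WT testes, 31 members were higher in WT progenitors and 9 were lower. The 9 were Kif2c (4.16 times the progenitor level), Nek2 (3.54 times), Pttg1 (2.02 times), Aurka (1.86 times) and, by less than 1.5 times, Cenpf, Ccnb2, Ttk, Espl1 and Cdc25c. At the other end, Ccna2, the cyclin of S phase and early mitosis, had 26.8 times its testes level in progenitors.

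**Figure D2:**
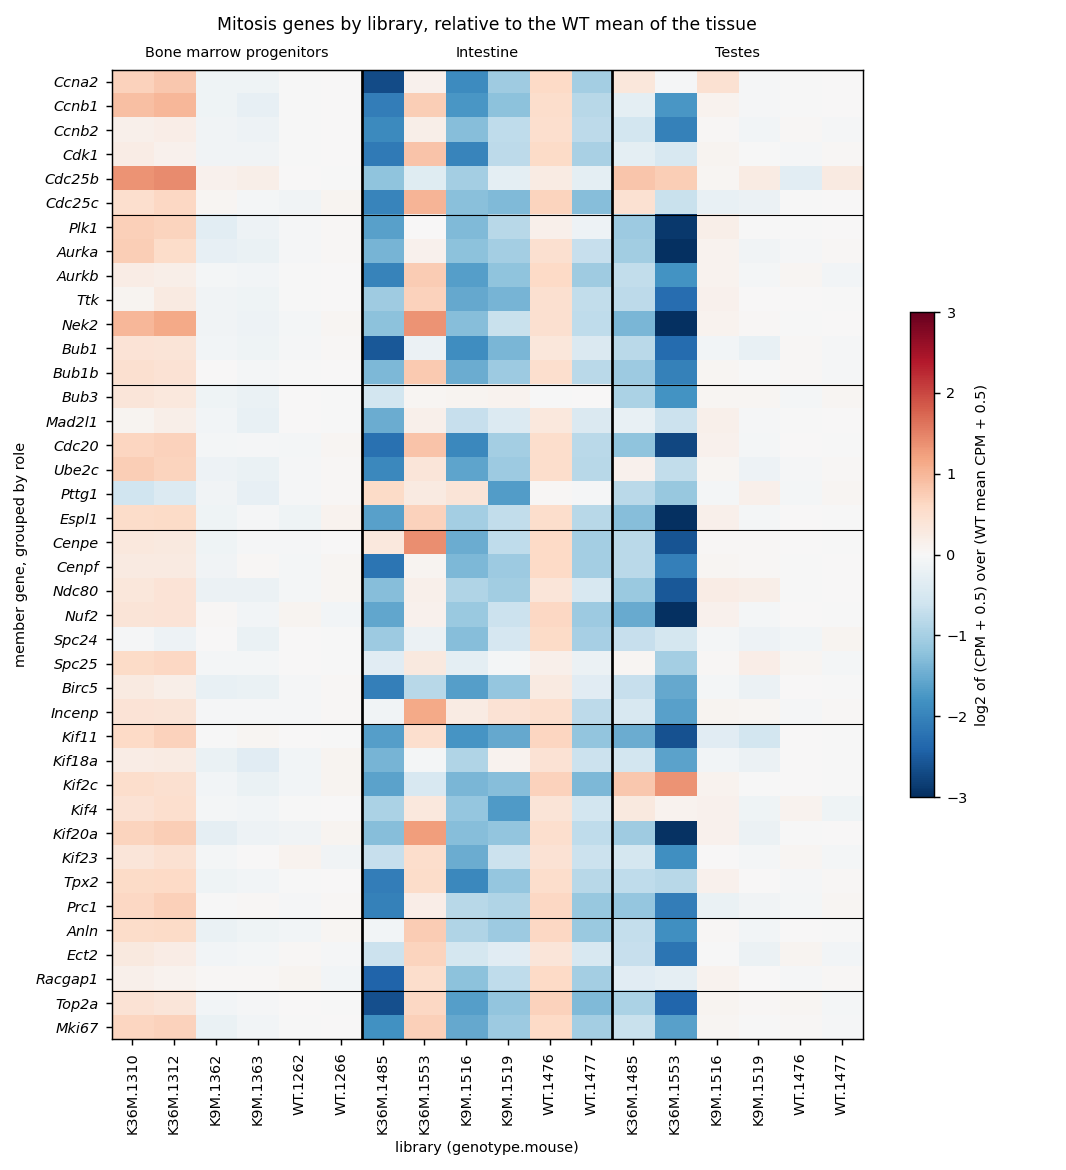
Level of the 40 members in each of the 18 libraries as log2 of (CPM + 0.5) over (WT mean CPM + 0.5) of the same tissue, with members in rows by role and libraries in columns; colours end at 3 and -3. K36M marrow is red in nearly all rows, K36M testes is blue in most rows and bluer in mouse K36M.1553, and the intestine libraries of 1 genotype differ from each other.

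In bone marrow progenitors, most of the mitosis genes were higher in K36M than in WT mice. Of the 40 members, 32 were higher and 1 was lower in K36M than in WT progenitors at an adjusted p under 0.05 (edgeR's quasi-likelihood test, Benjamini-Hochberg adjusted over 14604 genes), where 23.5% of all genes tested were called higher and 24.6% lower. The median log2 fold change of the members was 0.43, against -0.02 over all genes, and 38 of 40 were above 0. Both K36M libraries lay above both WT libraries for 38 members (37.3% of all genes) and below both for 2 (38.7% of all genes). The summed level of the 40 members was 10250 and 10380 CPM in K36M progenitors, against 6746 and 6891 CPM in K9M and 7218 and 7313 CPM in WT progenitors. Leaving out Mki67 and Top2a, which hold a large part of that sum, it was 6583 and 6689 CPM in K36M, against 4693 and 4806 CPM in WT progenitors.

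Of the 6 cyclin, CDK1 and CDC25 genes, 4 rose in K36M progenitors. Cdc25b, a phosphatase that activates CDK1, had the largest rise of all members. It had 100.3 and 105 CPM in K36M progenitors, 42.8 and 44.3 CPM in K9M progenitors and 39.5 and 38.8 CPM in WT progenitors, a log2 fold change over WT of 1.39 ± 0.07 (SE, adjusted p = 2.53e-05). Ccnb1, which encodes cyclin B1, the main mitotic cyclin, had 209 and 225 CPM in K36M progenitors, 103 and 94.6 CPM in K9M progenitors and 111 and 113 CPM in WT progenitors, a log2 fold change of 0.95 ± 0.075 (SE, adjusted p = 9.25e-05). Cdc25c, another CDK1 phosphatase, had 35.1 and 37.9 CPM in K36M progenitors, against 22.9 and 26.2 CPM in WT progenitors, a log2 fold change of 0.57 ± 0.11 (SE, adjusted p = 0.00377); it shares 12.7% of its exon bases with a gene on the opposite strand. Ccna2 rose by 0.76 ± 0.064 (SE, adjusted p = 0.000116). For the kinase itself, Cdk1 had 167 and 157 CPM in K36M progenitors, against 142 and 146 CPM in WT progenitors, a log2 fold change of 0.17 ± 0.066 (SE, adjusted p = 0.0669), and the other B-type cyclin gene, Ccnb2, had 0.18 ± 0.066 (SE, adjusted p = 0.0514). Both K36M libraries lay above both WT libraries for Cdk1 and Ccnb2, although neither passed the threshold.

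Of the 7 other mitotic kinases, 6 rose in K36M progenitors. Nek2, a kinase of centrosome separation, had 137 and 149.8 CPM in K36M progenitors, 63 and 61.3 CPM in K9M progenitors and 65.6 and 70.2 CPM in WT progenitors, a log2 fold change of 1.08 ± 0.076 (SE, adjusted p = 6.1e-05). Plk1, the polo kinase of mitotic entry and spindle assembly, had 173 and 169 CPM in K36M progenitors, 84.1 and 94.1 CPM in K9M progenitors and 102 and 109 CPM in WT progenitors, a log2 fold change of 0.70 ± 0.079 (SE, adjusted p = 0.000369). The K36M libraries of both genes lay above all 4 K9M and WT libraries. Aurora A of the spindle poles (Aurka) rose by 0.65, the checkpoint kinases Bub1b and Bub1 by 0.46 and 0.40, and Aurora B of the passenger complex (Aurkb) by 0.21 on the log2 scale. The call of Aurkb was lost with library size alone, with no filter on low counts and with the K36M and WT libraries alone. Ttk, the kinase that starts the spindle checkpoint, had 70.8 and 80.9 CPM in K36M progenitors, against 66.6 and 68.2 CPM in WT progenitors and did not pass the test, with a log2 fold change of 0.17 ± 0.081 (SE, adjusted p = 0.117).

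Of the 6 checkpoint and anaphase genes, 4 rose and 1, securin, fell. Ube2c, the ubiquitin-conjugating enzyme of that complex, had 171 and 162 CPM in K36M progenitors, against 99.7 and 104 CPM in WT progenitors, a log2 fold change of 0.71 ± 0.069 (SE, adjusted p = 0.000201); 22.8% of its exon bases overlap Tnnc2 on the opposite strand. Cdc20, the coactivator that the checkpoint restrains, rose by 0.67, and separase (Espl1) by 0.57 on the log2 scale. Bub3, a checkpoint adaptor, had 208 and 204 CPM in K36M progenitors, against 164 and 160.4 CPM in WT progenitors, a log2 fold change of 0.34 ± 0.063 (SE, adjusted p = 0.00316). Pttg1, which encodes securin, the inhibitor of separase, was the only member called lower. It had 18.7 and 21.4 CPM in K36M progenitors, 26.5 and 24.2 CPM in K9M progenitors and 28 and 29.4 CPM in WT progenitors, a log2 fold change of -0.52 ± 0.11 (SE, adjusted p = 0.00713). Its call was lost without mouse K36M.1310, when the adjusted p was 0.053. Mad2l1, the checkpoint protein that binds CDC20, had a log2 fold change of 0.14 ± 0.074 (SE, adjusted p = 0.163).

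Of the 8 kinetochore and passenger genes, 7 rose, with a median log2 fold change of 0.34 over the group, where that of the 7 kinases was 0.46. Spc25 of the NDC80 complex rose most, with 71 and 74.1 CPM in K36M progenitors, against 48.5 and 47.2 CPM in WT progenitors and a log2 fold change of 0.60 ± 0.071 (SE, adjusted p = 0.00045). Its partner Spc24 had 65.3 and 60.3 CPM in K36M progenitors, against 66.9 and 66.8 CPM in WT progenitors, a log2 fold change of -0.09 ± 0.088 (SE, adjusted p = 0.432), and was the only other member below 0. Ndc80 and Nuf2, the other 2 subunits of that complex, rose by 0.38 and 0.41 on the log2 scale. The kinetochore motor Cenpe rose by 0.31 and Cenpf by 0.27. Survivin (Birc5) and Incenp of the passenger complex rose by 0.22 and 0.40. The call of Birc5 was lost with library size alone, with no filter on low counts and with the K36M and WT libraries alone.

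Of the 8 spindle genes, 7 rose. Kif20a, a kinesin of the central spindle, had 147 and 154 CPM in K36M progenitors, against 86.3 and 98.7 CPM in WT progenitors, a log2 fold change of 0.70 ± 0.087 (SE, adjusted p = 0.000561), with 29.3% of its exon bases shared with Cdc23 on the opposite strand. Prc1, the antiparallel microtubule bundler, rose by 0.66, the bipolar spindle motor Kif11 by 0.65 and the spindle assembly factor Tpx2 by 0.59 on the log2 scale. The microtubule depolymerase Kif2c rose by 0.51, the chromokinesin Kif4 by 0.48 and the centralspindlin motor Kif23 by 0.40. Kif18a, which dampens chromosome movements, had 47.5 and 48.8 CPM in K36M progenitors, against 38.4 and 43.4 CPM in WT progenitors and a log2 fold change of 0.24 ± 0.096 (SE, adjusted p = 0.0752).

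Of the 3 cytokinesis genes, Anln, a scaffold of the contractile ring, had 204 and 208 CPM in K36M progenitors, against 132 and 146 CPM in WT progenitors, a log2 fold change of 0.56 ± 0.072 (SE, adjusted p = 0.000628), and the RhoA exchange factor Ect2 rose by 0.26. Racgap1, the centralspindlin partner of Kif23, had 177 and 172 CPM in K36M progenitors, against 169 and 150.5 CPM in WT progenitors and a log2 fold change of 0.13 ± 0.074 (SE, adjusted p = 0.192). Mki67, the proliferation marker that coats mitotic chromosomes, had 2154 and 2235 CPM in K36M progenitors, 1212 and 1307 CPM in K9M progenitors and 1379 and 1393 CPM in WT progenitors, a log2 fold change of 0.66 ± 0.053 (SE, adjusted p = 9.53e-05). Top2a, the topoisomerase that untangles sister chromatids, had 1516 and 1455 CPM in K36M progenitors, 1065 and 1094 CPM in K9M progenitors and 1145 and 1114 CPM in WT progenitors, a log2 fold change of 0.40 ± 0.049 (SE, adjusted p = 0.000545). For Mki67 and Top2a the K36M libraries lay above all 4 others.

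**Figure D3:**
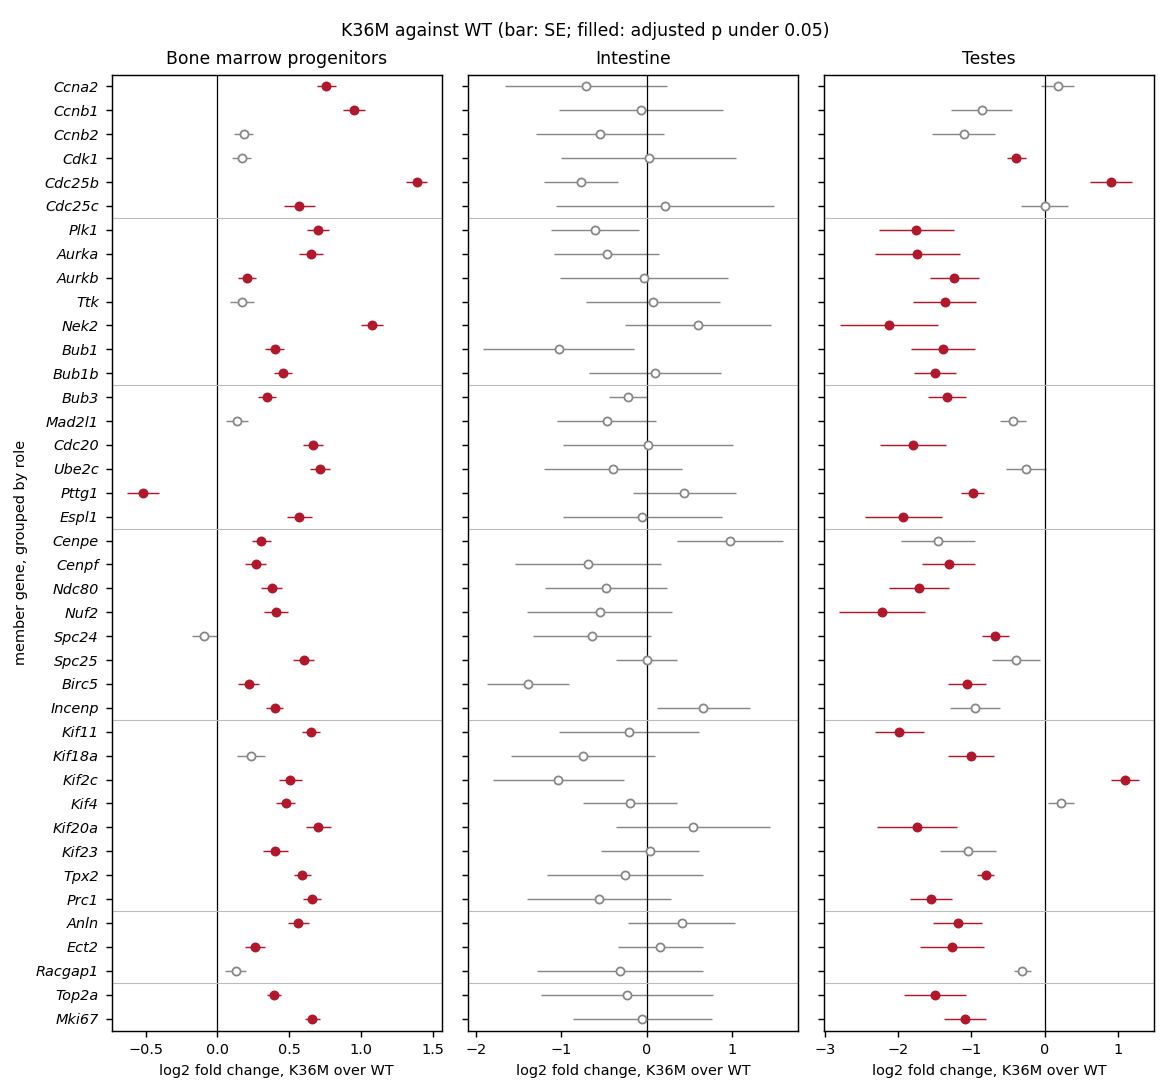
Log2 fold change of K36M over WT for each of the 40 members in progenitors, intestine and testes (1 panel each, own x scale); points are estimates, bars are standard errors and filled points passed an adjusted p of 0.05. In progenitors 32 filled points lie right of 0, in testes 26 lie left of 0, and in intestine all 40 are open.

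Other cell cycle genes gave calls in both directions in K36M progenitors, from lists chosen with earlier results of these data known. Of 43 other mitosis genes outside the 40 members, 26 were called higher and 5 lower, with a median log2 fold change of 0.31. Of these, Gtse1, a microtubule-binding protein of late cell cycle, rose by 0.77 ± 0.077 (SE, adjusted p = 0.000233) and Hmmr, a spindle protein, by 0.64 ± 0.068 (SE, adjusted p = 0.000292) on the log2 scale. Of 18 cohesin and condensin genes, 11 were higher and 1 was lower (median 0.40), led by the cohesin release factor Wapl at 0.88 ± 0.065 (SE, adjusted p = 7.24e-05) and the condensin subunit Smc2 at 0.62 ± 0.059 (SE, adjusted p = 0.000197). Of 38 DNA replication genes, 12 were higher and 5 lower, with a median of 0.03, near that of all genes; Dbf4, the activator of the CDC7 kinase, rose by 0.57 ± 0.073 (SE, adjusted p = 0.000638) and the helicase subunit Mcm2 by 0.30 ± 0.054 (SE, adjusted p = 0.00302). Of 15 anaphase-promoting complex genes, 5 were higher, led by Anapc5 at 0.40 ± 0.052 (SE, adjusted p = 0.000723) and Anapc1 at 0.34 ± 0.064 (SE, adjusted p = 0.00332), and 1 was lower. Of 23 genes of the DREAM complex, FOXM1 and related regulators, 9 were higher and 1 was lower; the pocket protein gene Rb1 had 0.68 ± 0.072 (SE, adjusted p = 0.0003) and E2f4 had 0.82 ± 0.088 (SE, adjusted p = 0.000309). Foxm1 itself, singled out after its values were seen, had a log2 fold change of -0.065 ± 0.075 (SE, adjusted p = 0.507). Of 9 CDK1 inhibitory and mitotic exit genes, 2 were higher, Fzr1 at 0.54 ± 0.067 (SE, adjusted p = 0.000572) and Fbxo5 at 0.39 ± 0.068 (SE, adjusted p = 0.00253), and 1 was lower.

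Markers of blood lineages also differed in K36M progenitors, in both directions. Of 14 erythroid markers, 9 were higher and none was lower, and they summed to 4760 and 5226 CPM in K36M, against 1945 and 3360 CPM in WT progenitors. Of 13 granulocyte-monocyte markers, 12 were lower and none was higher, and they summed to 5363 and 4031 CPM in K36M, against 20390 and 15930 CPM in WT progenitors. Of 9 stem cell markers, 2 were higher and 4 lower, with sums of 392 and 439 CPM in K36M and 650.3 and 608 CPM in WT progenitors. No marker of these lists was at 0 in a marrow library, and their part in the rise of the mitosis genes was not tested.

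In testes, most of the mitosis genes were lower in K36M than in WT mice. Of the 40 members, 26 were lower and 2 were higher in K36M than in WT testes (edgeR's quasi-likelihood test, Benjamini-Hochberg adjusted over 19160 genes), where 23.8% of all genes were called lower and 25.7% higher. The median log2 fold change of the members was -1.15, against 0.02 over all genes. Both K36M libraries lay below both WT libraries for 33 members (39.3% of all genes) and above both for 3 (39.9% of all genes). The members summed to 2226 and 1548 CPM in K36M testes, against 3448 and 3233 CPM in K9M testes and 3323 and 3300 CPM in WT testes. Without Kif2c, which rose, the sums were 1654 and 711 CPM in K36M testes, against 2993 and 2973 CPM in WT testes.

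The 2 K36M mice differed in how low the members were. Mouse K36M.1553 was below mouse K36M.1485 for 37 of 40 members, with a median ratio of mouse K36M.1485 to mouse K36M.1553 of 2.23 and a largest ratio of 5.40, for Nek2. The 3 exceptions included Kif2c, where mouse K36M.1485 had 0.684 times the level of mouse K36M.1553. The median log2 fold change over the members was -1.92 without mouse K36M.1485 and -0.79 without mouse K36M.1553. Without mouse WT.1476 or mouse WT.1477, 5 members were still called lower in each case and none higher (4.51% and 4.89% of all genes were lower), while the fold changes of the called members kept their signs. Without mouse K36M.1485, 36 members were called lower, where 33.4% of all genes were, and without mouse K36M.1553, 32 members, where 26.4% of all genes were. With the K36M and WT libraries fitted alone 9 members were called lower (16.3% of all genes), and with no filter on low counts 10 (13.3% of all genes).

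Of the 6 cyclin, CDK1 and CDC25 genes, 1 fell and 1 rose in K36M testes. Cdk1 had 27.7 and 24.4 CPM in K36M testes, against 33.1 and 34.9 CPM in WT testes, a log2 fold change of -0.38 ± 0.13 (SE, adjusted p = 0.0412). Its call was lost with no filter on low counts (adjusted p = 0.0672), with DESeq2 (adjusted p = 0.0661), with the K36M and WT libraries alone (adjusted p = 0.0865) and without mouse WT.1476 or mouse WT.1477 (adjusted p = 0.154 and 0.231). Ccnb1 had 34.6 and 12.3 CPM in K36M testes, 45.9 and 41.1 CPM in K9M testes and 42 and 43 CPM in WT testes, a log2 fold change of -0.86 ± 0.42 (SE, adjusted p = 0.132), and both K36M libraries lay below the other 4. Ccnb2 had 98.6 and 35 CPM in K36M testes, against 147 and 140.0 CPM in WT testes, a log2 fold change of -1.10 ± 0.43 (SE, adjusted p = 0.0711). It was called lower by DESeq2 (adjusted p = 0.0218), by limma-voom (adjusted p = 0.0393) and by edgeR without mouse K36M.1485 (-2.08, adjusted p = 4.31e-14) or mouse K36M.1553 (-0.56, adjusted p = 2.63e-06). Cdc25b, low in testes, had 3.78 and 3.51 CPM in K36M testes, 2.01 and 2.35 CPM in K9M testes and 1.44 and 2.39 CPM in WT testes, a log2 fold change of 0.91 ± 0.29 (SE, adjusted p = 0.0383). Its call was lost without mouse WT.1476 (adjusted p = 0.213) and without mouse WT.1477 (adjusted p = 0.0571). Cdc25c had 34.6 and 15.8 CPM in K36M testes, against 24.9 and 25.5 CPM in WT testes, a log2 fold change of -0.00064 ± 0.33 (SE, adjusted p = 0.999): mouse K36M.1485 lay above both WT mice and mouse K36M.1553 below both. Its log2 fold change was 0.43 without mouse K36M.1553 (adjusted p = 0.00115) and -0.72 without mouse K36M.1485 (adjusted p = 1.82e-05). Ccna2 did not pass the test, at 0.18 on the log2 scale.

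All 7 other mitotic kinases fell in K36M testes. Nek2 had 92.8 and 17.2 CPM in K36M testes, 259 and 246 CPM in K9M testes and 239 and 242 CPM in WT testes, a log2 fold change of -2.13 ± 0.67 (SE, adjusted p = 0.0383). Plk1 had 40.5 and 11.3 CPM in K36M testes, 98.9 and 87.1 CPM in K9M testes and 86.4 and 88 CPM in WT testes, a log2 fold change of -1.75 ± 0.51 (SE, adjusted p = 0.0304). Aurkb fell least, with 7.62 and 3.39 CPM in K36M testes, against 13.6 and 12.3 CPM in WT testes and a log2 fold change of -1.23 ± 0.33 (SE, adjusted p = 0.0218). In all 3 genes both K36M libraries lay below all K9M and WT libraries. Aurka, Bub1b, Bub1 and Ttk fell by between 1.74 and 1.36 on the log2 scale.

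In the checkpoint and anaphase group 4 of 6 fell. Separase had the largest decrease, with Espl1 at 57.2 and 15.8 CPM in K36M testes, against 139 and 139 CPM in WT testes, a log2 fold change of -1.93 ± 0.53 (SE, adjusted p = 0.0243). Bub3 had 24.8 and 13.8 CPM in K36M testes, against 46.8 and 50.2 CPM in WT testes, a log2 fold change of -1.33 ± 0.25 (SE, adjusted p = 0.00752). Espl1 and Bub3 were lower in each K36M mouse than in any WT mouse. Cdc20 fell by 1.79 and Pttg1 by 0.98 on the log2 scale, Pttg1 with 32.7 and 26.1 CPM in K36M testes, against 55.9 and 60.1 CPM in WT testes. Ube2c, which rose in K36M progenitors, had 18.1 and 9.62 CPM in K36M testes, against 16 and 16.9 CPM in WT testes, a log2 fold change of -0.25 ± 0.28 (SE, adjusted p = 0.475), and its groups overlapped. Mad2l1 had a log2 fold change of -0.43 ± 0.18 (SE, adjusted p = 0.087).

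Of the 8 kinetochore and passenger genes, 5 fell. Nuf2 had the largest decrease of all members, with 28.6 and 6.47 CPM in K36M testes, 88.8 and 78.6 CPM in K9M testes and 82.8 and 80.9 CPM in WT testes and a log2 fold change of -2.22 ± 0.58 (SE, adjusted p = 0.0218). Spc25, another subunit of the same complex, had 23.9 and 11 CPM in K36M testes, against 23.9 and 21.8 CPM in WT testes, a log2 fold change of -0.39 ± 0.33 (SE, adjusted p = 0.355). For Spc25, mouse K36M.1485 lay within the range of the WT mice and mouse K36M.1553 below it. Ndc80, Cenpf, Birc5 and Spc24 fell by 1.71, 1.31, 1.06 and 0.67 on the log2 scale. Cenpe at -1.45 and Incenp at -0.95 did not pass the threshold, with adjusted p-values of 0.0526 and 0.0569.

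Kif2c was the only one of the 8 spindle genes to rise in K36M testes, and 5 fell. It had 573 and 837 CPM in K36M testes, 351 and 328 CPM in K9M testes and 330.1 and 327 CPM in WT testes, a log2 fold change of 1.10 ± 0.19 (SE, adjusted p = 0.00603). Both K36M libraries lay above the other 4, and no annotated gene overlapped its exons. Without mouse WT.1476 the adjusted p was 0.0573 and without mouse WT.1477 it was 0.0574, at log2 fold changes of 1.10 and 1.09. Kif11 had 23.6 and 10.6 CPM in K36M testes, against 67.9 and 67.2 CPM in WT testes, a log2 fold change of -1.98 ± 0.34 (SE, adjusted p = 0.00608). Kif20a, Prc1, Kif18a and Tpx2 also fell, by 1.74, 1.55, 1.0 and 0.80 on the log2 scale. Kif4 at 0.23 and Kif23 at -1.04 did not pass the test.

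Of the cytokinesis genes, Ect2 and Anln fell. Ect2 had 44.1 and 15.3 CPM in K36M testes, against 75.2 and 67.8 CPM in WT testes, a log2 fold change of -1.27 ± 0.43 (SE, adjusted p = 0.0497), and Anln had -1.19. Racgap1 had 50.4 and 52.5 CPM in K36M testes, against 61.9 and 65 CPM in WT testes, a log2 fold change of -0.30 ± 0.12 (SE, adjusted p = 0.0658). Mki67 had 49.4 and 25.1 CPM in K36M testes, 82.3 and 78 CPM in K9M testes and 80.8 and 77 CPM in WT testes, a log2 fold change of -1.08 ± 0.29 (SE, adjusted p = 0.0215). Top2a had 129 and 47.3 CPM in K36M testes, 261 and 253 CPM in K9M testes and 257 and 239 CPM in WT testes, a log2 fold change of -1.50 ± 0.42 (SE, adjusted p = 0.0263). Both chromosome genes were lower in each K36M mouse than in any K9M or WT mouse.

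**Figure D4:**
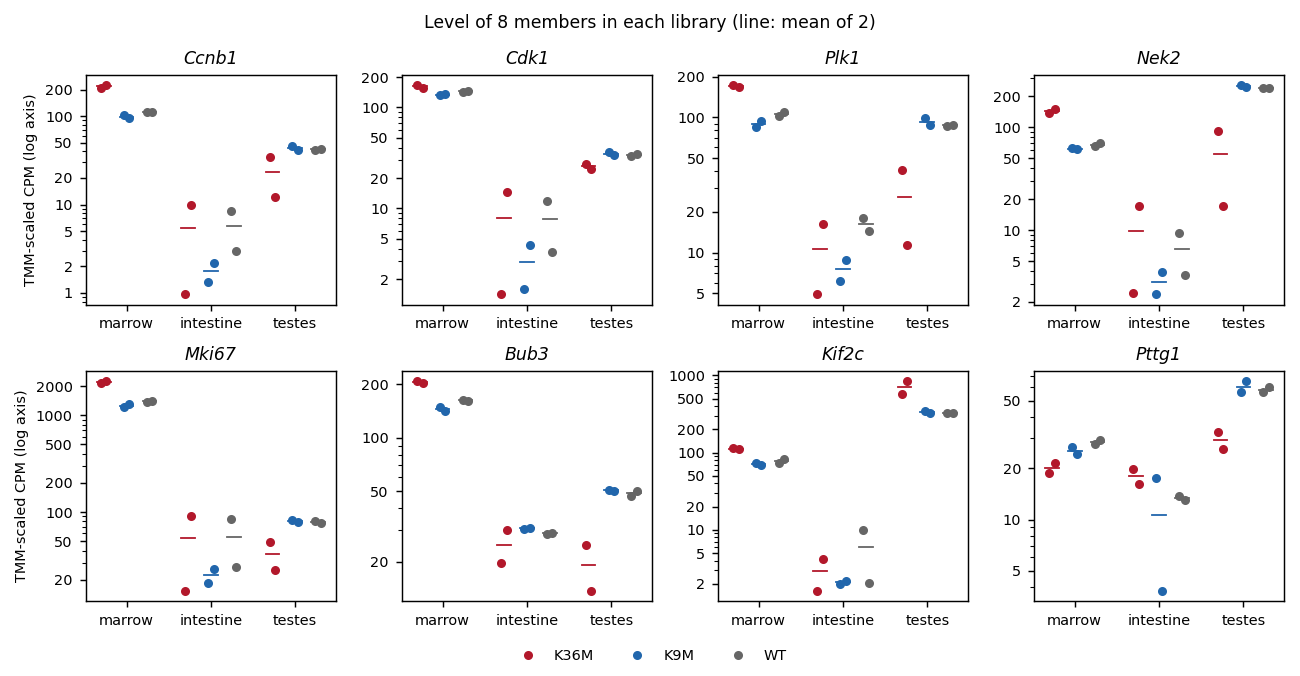
Level of 8 members in each library, in TMM-scaled CPM on a log axis, by tissue and genotype (K36M red, K9M blue, WT grey), with a line at the mean of 2 libraries. In testes Ccnb1, Cdk1, Plk1, Nek2, Bub3, Mki67 and Pttg1 are lower in both K36M mice and Kif2c is higher, and in intestine libraries of 1 genotype lie far apart.

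Markers of testis cell types also differed in K36M testes, in both directions. Of 13 spermatocyte markers, 10 were lower and none was higher, with sums of 1451 and 699.5 CPM in K36M (mice K36M.1485 and K36M.1553), against 2973 and 2937 CPM in WT testes. All 8 elongating spermatid markers were higher, with sums of 33540 and 48290 CPM in K36M, against 15550 and 15730 CPM in WT testes. All 8 Sertoli markers tested were higher, at 3050 and 4107 CPM in K36M, against 1173 and 1203 CPM in WT testes. Of 7 Leydig markers, 6 were lower, at 71.2 and 50.5 CPM in K36M, against 479 and 380.4 CPM in WT testes. The 8 markers of undifferentiated spermatogonia summed to 147.9 and 157.7 CPM in K36M, against 83.3 and 89.7 CPM in WT testes. Those of differentiating spermatogonia, 6 genes, summed to 340.2 and 233.8 CPM in K36M, against 476.5 and 465.3 CPM in WT testes. For 8 round spermatid markers the sums were 1728 and 1853 CPM in K36M, against 1548 and 1498 CPM in WT testes. No marker of these lists was at 0 in a testes library, and their part in the fall of the mitosis genes was not tested.

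The related gene lists were also tested in K36M testes. Of 43 other mitosis genes, 26 were lower and 4 higher, with a median log2 fold change of -0.97; the kinetochore checkpoint gene Zwilch had -1.37 ± 0.19 (SE, adjusted p = 0.00352) and the chromokinesin Kif22 had -1.38 ± 0.21 (SE, adjusted p = 0.00424). Of 10 meiotic counterparts, genes that replace or adapt mitotic proteins in meiosis, 8 were lower and none higher, including the cohesin protector Sgo2a at -2.05 ± 0.41 (SE, adjusted p = 0.00975) and the meiotic cohesin Stag3 at -1.03 ± 0.23 (SE, adjusted p = 0.0115). Their summed level was 783 and 471 CPM in K36M testes, against 1194 and 1189 CPM in WT testes. Of 18 cohesin and condensin genes, 9 were lower and 4 higher, with Smc1a at 1.06 ± 0.19 (SE, adjusted p = 0.00615) and Ncapd3 at -0.62 ± 0.12 (SE, adjusted p = 0.00794). Of 38 DNA replication genes, 12 were lower and 5 higher (median -0.20), with the replication kinase Cdc7 at -1.36 ± 0.19 (SE, adjusted p = 0.00336) and cyclin E2 (Ccne2) at -1.36 ± 0.22 (SE, adjusted p = 0.00498). Of 23 DREAM and FOXM1 regulators, 8 were lower and 4 higher, with Tfdp1 at -1.0 ± 0.12 (SE, adjusted p = 0.0026) and Lin52 at -1.18 ± 0.16 (SE, adjusted p = 0.0032). Of 15 anaphase-promoting complex genes, 3 were lower and 2 higher, with Anapc5 at 0.53 ± 0.13 (SE, adjusted p = 0.0157) and Anapc10 at -0.49 ± 0.13 (SE, adjusted p = 0.019). Of 9 CDK1 inhibitory and exit genes, 3 were lower and 3 higher, with the phosphatases Cdc14a at 1.06 ± 0.18 (SE, adjusted p = 0.00546) and Cdc14b at 0.81 ± 0.14 (SE, adjusted p = 0.00563).

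The K36M effect on most of the mitosis genes differed between progenitors and testes, a contrast that was known when the group was picked. In an interaction test over the 12 libraries of both tissues, the K36M effect was higher in progenitors than in testes for 34 of 40 members and lower for none (edgeR's quasi-likelihood test, Benjamini-Hochberg adjusted over 20653 genes), where 18% of all genes were higher and 17.3% lower. The median difference of the log2 fold changes was 1.58 over the members and 0.07 over all genes, and 39 of 40 were above 0. The largest was that of Nek2, 3.25 ± 0.78 (SE, adjusted p = 0.0105), and Kif11, Nuf2, Espl1, Cdc20 and Plk1 followed at 2.69, 2.68, 2.55, 2.51 and 2.50. Cdk1 differed by 0.61 ± 0.15 (SE, adjusted p = 0.00783); it fell in testes and did not pass the test in progenitors. The 6 members that did not pass were Ccnb2, Cdc25b, Cdc25c, Pttg1, Kif4 and Kif2c. Kif2c alone was below 0, at -0.53 ± 0.21 (SE, adjusted p = 0.0667), and it was called lower without testes mouse K36M.1485 or K36M.1553. At least 20 members still passed when any 1 library was left out, with 20 without marrow mouse WT.1266 and 21 without marrow mouse K36M.1310, and 21 passed with no filter on low counts.

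By their calls in the 2 tissues, 21 members rose in K36M progenitors and fell in K36M testes. Cdc25b and Kif2c rose in both, and Pttg1 fell in both. Another 9 rose in progenitors with no call in testes: Ccna2, Ccnb1, Cdc25c, Ube2c, Cenpe, Spc25, Incenp, Kif4 and Kif23. Another 4 fell in testes with no call in progenitors: Cdk1, Ttk, Spc24 and Kif18a. Ccnb2, Mad2l1 and Racgap1 passed in neither. Across the 40 members Pearson's r between the log2 fold changes of the 2 tissues, which came from different mice, was 0.0753 and Spearman's rho was -0.131; genes are not independent replicates. The 23 members with a CHR match within 50 bases of the start had a median log2 fold change of 0.46 in K36M progenitors and -1.33 in K36M testes. The 10 members with a window but no such match had medians of 0.36 and -1.03.

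**Figure D5:**
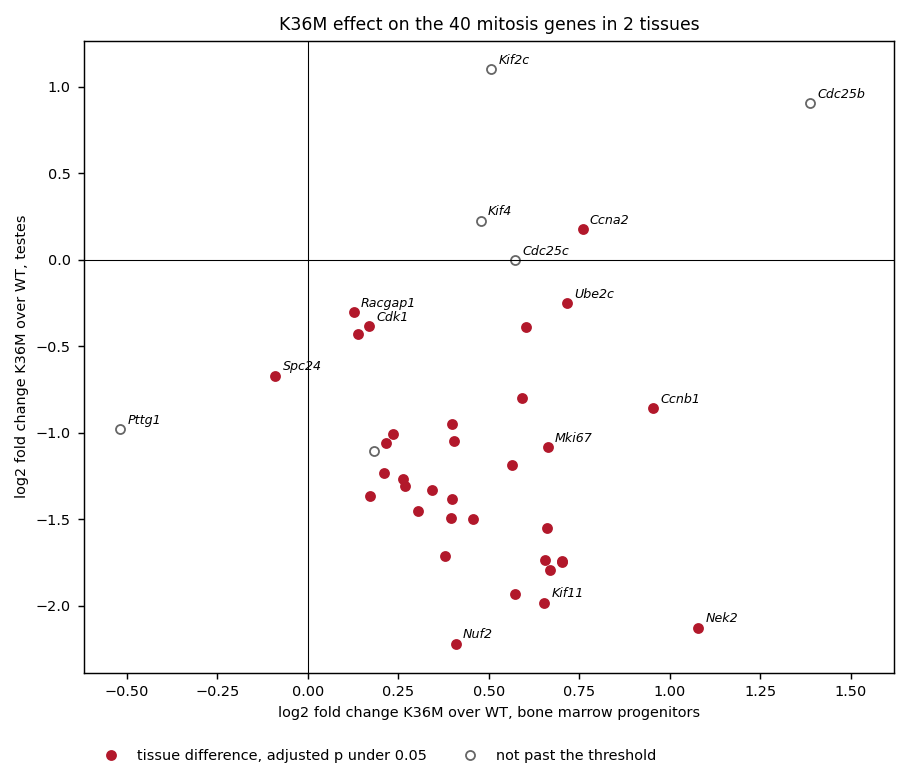
Log2 fold change of K36M over WT in progenitors (x axis) and in testes (y axis) for the 40 members; filled points passed the test of the difference between the tissues at an adjusted p of 0.05. Most points lie to the right of 0 and below 0, and Cdc25b and Kif2c lie to the right of 0 and above 0.

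In intestine no mitosis gene was called in K36M against WT, and mice of 1 genotype differed widely. With edgeR's quasi-likelihood test 0 of 40 members were higher and 0 lower over 14246 genes, where 11.7% of all genes were called higher and 11.7% lower. Birc5 alone had an unadjusted p under 0.05; DESeq2 called 1 member lower and limma-voom none. The members summed to 157 and 567 CPM in K36M (mice K36M.1485 and K36M.1553), 183 and 221 CPM in K9M and 562 and 237 CPM in WT intestine (mice WT.1476 and WT.1477). Mouse K36M.1553 was above mouse K36M.1485 for 39 of 40 members, with a median ratio of 4.79, and mouse WT.1476 was above mouse WT.1477 for 39 of 40, with a median ratio of 2.76. The exceptions were Pttg1 in K36M and Bub3 in WT intestine. The median log2 fold change of the members was -0.21, but 0.44 without mouse K36M.1485, -1.87 without mouse K36M.1553, 0.67 without mouse WT.1476 and -0.72 without mouse WT.1477. Without mouse K36M.1553, 5 members were called lower, where 12.8% of all genes were. Both K36M libraries lay above both WT libraries for 1 member (30.6% of all genes) and below both for 2 (32.3% of all genes).

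The spread between intestines was seen in genes of every role. Ccnb1 had 0.971 and 9.95 CPM in K36M intestine, against 8.49 and 2.98 CPM in WT intestine, and Cdk1 had 1.42 and 14.5 CPM in K36M intestine, against 11.9 and 3.73 CPM in WT intestine. Plk1 had 4.93 and 16.2 CPM in K36M intestine, against 17.9 and 14.4 CPM in WT intestine, and Nek2 had 2.46 and 17.4 CPM in K36M intestine, against 9.36 and 3.66 CPM in WT intestine. In each case mouse K36M.1553 was close to or above mouse WT.1476 and mouse K36M.1485 was below both WT mice. Cdc25c had 0.149 and 4.61 CPM in K36M intestine, against 3.54 and 0.543 CPM in WT intestine, with only 2 reads in its lowest library, and Cdc25b had 3.66 and 6.92 CPM in K36M intestine, against 10.8 and 7.32 CPM in WT intestine. Bub1 had 0.448 and 4.43 CPM in K36M intestine, against 6.5 and 3.59 CPM in WT intestine. Cdc25b was below mouse WT.1477 in both K36M mice, with a log2 fold change of -0.78 ± 0.44 (SE, adjusted p = 0.24). Bub3 had 19.6 and 30 CPM in K36M intestine, against 28.8 and 29.1 CPM in WT intestine, while Mad2l1 had 2.84 and 10 CPM in K36M intestine, against 11.3 and 6.51 CPM in WT intestine. Pttg1 had 19.9 and 16.3 CPM in K36M intestine, 17.5 and 3.83 CPM in K9M intestine and 13.7 and 12.9 CPM in WT intestine, a log2 fold change of 0.44 ± 0.60 (SE, adjusted p = 0.631); it was the member with both K36M libraries above both WT libraries.

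Among the kinetochore genes in intestine Cenpe had the highest fold change, with 12.3 and 26.4 CPM in K36M intestine, against 15 and 4.54 CPM in WT intestine and a log2 fold change of 0.98 ± 0.62 (SE, adjusted p = 0.296). Birc5 had 3.14 and 7.95 CPM in K36M intestine, against 17.8 and 11.5 CPM in WT intestine, a log2 fold change of -1.39 ± 0.48 (SE, adjusted p = 0.082). Both K36M libraries of Birc5 lay below both WT libraries, and those of Cenpe lay on both sides of mouse WT.1476. Kif20a had 1.04 and 8.37 CPM in K36M intestine, against 4.75 and 1.7 CPM in WT intestine, and Kif2c had 1.64 and 4.19 CPM in K36M intestine, against 9.94 and 2.04 CPM in WT intestine, a log2 fold change of -1.04 ± 0.77 (SE, adjusted p = 0.366). Anln had 5.23 and 9.77 CPM in K36M intestine, against 8.88 and 2.31 CPM in WT intestine, and Racgap1 had 1.2 and 12.5 CPM in K36M intestine, against 13.1 and 3.93 CPM in WT intestine. These groups overlapped except where stated. Mki67 had 15.5 and 91.2 CPM in K36M intestine, 18.7 and 25.8 CPM in K9M intestine and 83.7 and 27.1 CPM in WT intestine, and Top2a had 5.38 and 55.5 CPM in K36M intestine, 11 and 15.4 CPM in K9M intestine and 57.7 and 13.9 CPM in WT intestine. For both, mouse K36M.1553 and mouse WT.1476 stood together above the other 4 mice.

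The other gene lists gave few calls in K36M intestine. The 38 DNA replication genes summed to 756 and 706 CPM in K36M, 383 and 386 CPM in K9M and 489 and 379 CPM in WT intestine, and of 37 tested 5 were higher in K36M than in WT. Rrm2, a subunit of ribonucleotide reductase, rose by 5.09 ± 0.54 (SE, adjusted p = 0.00316) on the log2 scale. Of 42 other mitosis genes tested, 1 was higher, the kinetochore protein Zwint at 2.14 ± 0.19 (SE, adjusted p = 0.00195), and 2 were lower, Mis12 at -1.08 ± 0.23 (SE, adjusted p = 0.0203) and Spag5 at -1.46 ± 0.41 (SE, adjusted p = 0.048). Of 23 DREAM and FOXM1 regulators 3 were lower, led by Rb1 at -1.17 ± 0.16 (SE, adjusted p = 0.0056) and Nfya at -0.76 ± 0.19 (SE, adjusted p = 0.0334). Of 15 anaphase-promoting complex genes 2 were higher, Anapc16 at 1.47 ± 0.21 (SE, adjusted p = 0.00683) and Anapc7 at 0.79 ± 0.16 (SE, adjusted p = 0.0193), and 2 lower. Among 18 cohesin and condensin genes 1 was lower, Pds5b at -0.86 ± 0.22 (SE, adjusted p = 0.0366), and 1 of 9 CDK1 inhibitory and exit genes was higher, Ppp2r2d at 1.08 ± 0.15 (SE, adjusted p = 0.00632). Cell type markers also differed: all 7 goblet markers were lower, at 981 and 1359 CPM in K36M, against 10610 and 12680 CPM in WT intestine, and all 7 T and NK cell markers, at 42 and 30.6 CPM in K36M, against 321 and 339 CPM in WT intestine. The 7 crypt stem cell markers summed to 77.5 and 119.8 CPM in K36M, against 186 and 117 CPM in WT intestine; 1 of them, Lgr5, was called higher, at 3.07 ± 0.67 (SE, adjusted p = 0.0222), and none lower. Of 9 enterocyte markers 3 were lower, led by Lct at -2.38 ± 0.26 (SE, adjusted p = 0.00307) and Anpep at -1.75 ± 0.33 (SE, adjusted p = 0.0149). Of 5 Paneth cell markers 1 was higher, Lyz1 at 1.08 ± 0.18 (SE, adjusted p = 0.00978), and 1 lower, Ang4 at -2.70 ± 0.66 (SE, adjusted p = 0.0308). Of 9 stromal markers tested 1 was higher, Pdgfra at 4.91 ± 0.96 (SE, adjusted p = 0.0167), and of 4 macrophage markers 2 were higher, Csf1r at 3.37 ± 0.61 (SE, adjusted p = 0.0129) and Adgre1 at 3.15 ± 0.78 (SE, adjusted p = 0.0325). No goblet, T and NK or crypt stem cell marker was at 0 in any intestine library, and the part of these cell types in the levels of the mitosis genes was not tested.

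Between progenitors and intestine the K36M effect differed for 2 members, Cdc25b by 2.15 ± 0.43 (SE, adjusted p = 0.00731) and Birc5 by 1.59 ± 0.48 (SE, adjusted p = 0.0409) on the log2 scale, both higher in progenitors, where 9.93% of all 16785 genes were higher and 11.1% lower. Without intestine mouse K36M.1553, 29 members were called higher in progenitors, where 15.9% of all genes were. Without any 1 of the 4 marrow mice or intestine mouse WT.1476, 1 member was called. Between intestine and testes no member was called (edgeR, 20253 genes, of which 10.1% were higher and 12.4% lower in intestine), with 5 members at an unadjusted p under 0.05. DESeq2 called 2 members higher and 2 lower, and limma-voom 1 higher. The shares of all genes called by these 2 methods are not given here, so these few calls are not read as a result. Both tissues were taken from each of these mice, and with the mouse as a replicate block edgeR again called 0 higher and 0 lower. The median difference of the log2 fold changes over the members was 1.02. It was 1.72 without intestine mouse WT.1476 and 0.27 without intestine mouse WT.1477. Without intestine mouse K36M.1485 it was 1.45, and without intestine mouse K36M.1553 it was -0.81.

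No mitosis gene passed the threshold in K9M against WT in any tissue. In progenitors 0 of 40 members were called against WT (0.589% of all genes were higher and 0.418% lower), with 10 at an unadjusted p under 0.05 and none called by DESeq2 or limma-voom. The median log2 fold change was -0.10, 35 members were below 0 and both K9M libraries lay below both WT libraries for 27 members (22.6% of all genes). Plk1 had the smallest p, with 84.1 and 94.1 CPM in K9M progenitors, against 102 and 109 CPM in WT progenitors and a log2 fold change of -0.24 ± 0.079 (SE, adjusted p = 0.239). Kif18a was lowest, at -0.27, and Cdc25b highest, at 0.16. In testes 0 of 40 were called (0.0261% of all genes higher and 0.0418% lower), none had an unadjusted p under 0.05, and DESeq2 and limma-voom called none. The median was 0.04, with a range of -0.45 for Kif11 to 0.24 for Ccna2.

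In intestine 0 of 40 members were called in K9M against WT by edgeR (0.147% of all genes were higher and 0.0632% lower), and 0 by DESeq2 and limma-voom, with Birc5 and Kif4 at an unadjusted p under 0.05. The median log2 fold change was -1.28, and both K9M libraries lay below both WT libraries for 19 members (23.7% of all genes). Bub3 and Incenp alone were above 0. The size of this median rested on mouse WT.1476, without which it was -0.28. With no filter on low counts 23 members were called lower, where 3.08% of all genes were. Pttg1 differed between the K9M mice, with 17.5 CPM in mouse K9M.1516 and 3.83 CPM in mouse K9M.1519. No tissue difference of the K9M effect was called for any member, with 0, 2 and 4 members at an unadjusted p under 0.05 between progenitors and testes, intestine and testes, and progenitors and intestine. In these tests 0.126% and 0.0968%, 0.0691% and 0.0543%, and 0.125% and 0.143% of all genes were higher and lower, and DESeq2 and limma-voom called no member. Without intestine mouse WT.1477, 1 member was called lower in intestine than in testes.

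K36M was also compared with K9M, with the same K36M libraries as in the comparison with WT. In progenitors 37 members were higher and 1, Pttg1, was lower (26.0% and 27.8% of all genes), with a median log2 fold change of 0.53. The call of Pttg1, at -0.34 ± 0.11 (SE, adjusted p = 0.0356), was lost without any 1 of the 4 K36M and K9M mice. The 5 that were called here and not against WT were Cdk1 at 0.27 ± 0.066 (SE, adjusted p = 0.00925), Ccnb2, Ttk, Mad2l1 and Kif18a. Spc24 and Racgap1 were called in neither. In testes 26 members were lower and 1, Kif2c, was higher (23.9% and 25.4% of all genes), with a median of -1.14. Cenpe, Incenp and Racgap1 were called here and not against WT, and Cdc25b, Bub1, Kif18a and Ect2 only against WT. Without mouse K9M.1516 no member and no gene at all was called in this testes comparison, and without mouse K9M.1519 2 members were called lower. In intestine 0 members were called by edgeR (12.2% of all genes higher and 12.9% lower), with 2 at an unadjusted p under 0.05. DESeq2 called 1 higher and limma-voom none. The median log2 fold change of the members was 0.86, but 1.63 without mouse K36M.1485 and -0.68 without mouse K36M.1553.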

How the data were processed

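PolyA RNA-seq counts per gene were deposited by the authors for each of 18 libraries (SMARTer v3 kit, HiSeq2500, per the labels' protocols). Per the submitters' processing notes the reads were handled with STAR and HTSeq on mm9; tool versions and the strand setting are not given in the sources used here. Symbols for 32897 of 37620 gene IDs came from GENCODE M21, used for names only, and exon overlaps between genes from the same annotation (GRCm38). The 5 entries that name no gene stayed out of library sizes and tests. Of all counts, those in genes and in these 5 entries together, no feature held 9.888% to 26.02%. The entry for not unique held 15.26% to 29.09% and that for ambiguous 2.206% to 4.171%.

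Each tissue was fitted alone with edgeR 4.0.16 (R 4.3.3): TMM scaling, filterByExpr, robust quasi-likelihood, 3 group means over 6 libraries, Benjamini-Hochberg adjustment over all genes tested and a threshold of 0.05. Differences between tissues were interaction terms over 12 libraries. Alternatives were DESeq2 1.42.0, limma-voom (limma 3.58.1), DESeq2 size factors, library size alone, no filter, the 2 genotypes alone, each library left out (the lone library left is then assumed to vary like the other groups) and the mouse as a replicate block for intestine with testes. The pairing comes from the mouse numbers in the labels; deviations of same-numbered libraries correlated at -0.0411 in K36M, 0.09 in K9M and 0.0462 in WT over 15529 genes. The fits were tested on simulated data. Promoter windows are RefSeq's (GRCm38.p6).

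The members and gene lists were chosen with earlier results of these data known. Genes named with full values are, per tissue and role, the members with the highest and lowest K36M over WT fold change, plus Ccnb1, Cdk1, Plk1, Bub3, Cdc25c, Top2a and Mki67; other members are given by fold change. Of other lists up to 2 called genes with the smallest p are named. Not every result of these lists is reported here. CPM are not divided by gene length.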

Additional observations from a re-analysis of the deposited data

Results flagged for a closer look

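The K36M effect on 34 mitosis genes differed between bone marrow progenitors and testes in the interaction test of edgeR (adjusted p under 0.05). Over all genes tested, 18% were higher in progenitors and 17.3% lower. This contrast was known when the group was picked, so the test is not independent of that choice. Ccna2, Ttk, Ube2c, Spc25 and Ect2 were among the members whose call was lost in several fits with 1 library left out. The values below are the log2 fold change of K36M over WT in progenitors minus that in testes, and each was positive. Among the cyclin and CDK1 genes it was 0.64 for Ccna2, 1.86 for Ccnb1 and 0.61 for Cdk1. Among the other kinases it was 2.50 for Plk1, 2.44 for Aurka, 1.49 for Aurkb, 1.59 for Ttk, 3.25 for Nek2, 1.83 for Bub1 and 2.01 for Bub1b. In the checkpoint and anaphase group it was 1.73 for Bub3, 0.62 for Mad2l1, 2.51 for Cdc20, 1.02 for Ube2c and 2.55 for Espl1. In the kinetochore and passenger group it was 1.81 for Cenpe, 1.63 for Cenpf, 2.14 for Ndc80, 2.68 for Nuf2, 0.64 for Spc24, 1.04 for Spc25, 1.33 for Birc5 and 1.40 for Incenp. Among the spindle genes it was 2.69 for Kif11, 1.29 for Kif18a, 2.49 for Kif20a, 1.5 for Kif23, 1.45 for Tpx2 and 2.26 for Prc1. For cytokinesis and chromosome structure it was 1.80 for Anln, 1.58 for Ect2, 0.49 for Racgap1, 1.94 for Top2a and 1.80 for Mki67. For 2 members the K36M effect also differed between progenitors and intestine, by 2.15 for Cdc25b and 1.59 for Birc5. There 9.93% of all genes were higher and 11.1% lower.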

How the results depend on the processing

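Among the values of single genes past the threshold in either setting, 1 reversed its sign: the testes fold change of Cdc25c, near 0 over all libraries, was 0.43 without mouse K36M.1553 and -0.72 without mouse K36M.1485. In K36M against WT testes the members called lower numbered 10 with no filter on low counts, 9 with the 2 genotypes alone and 5 to 36 with 1 library left out. Those called higher numbered 1 with library size alone, DESeq2 or the 2 genotypes alone, and 0 to 3 with 1 library left out. In K36M against K9M testes 10 were lower with no filter and 14 with the 2 genotypes alone, and the counts also changed with 1 library left out. In K9M against WT testes 1 was lower with the 2 genotypes alone. The shares of all genes called under these settings are not given for either comparison, so these counts are not read as a result.

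In progenitors the call of Pttg1, the 1 member lower in K36M than in WT, was lost without mouse K36M.1310. Against K9M it was lost with DESeq2 and without any 1 of the K36M and K9M mice. Of the members higher in K36M than in WT, Aurkb and Birc5 were not called with library size alone, no filter or the 2 genotypes alone. Some fits with 1 library left out also lost Aurkb, Birc5, Cenpf or Ect2. In intestine, K36M against WT gave 1 higher and 1 lower with no filter, 1 lower with DESeq2 and 0 to 5 lower with 1 library left out. K9M against WT gave 23 lower with no filter. K36M against K9M gave 18 higher with no filter, 1 with DESeq2, 1 with the 2 genotypes alone and 0 to 7 with 1 library left out, and 0 to 1 lower.

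For the difference between progenitors and testes 21 were higher with no filter and 20 to 35 with 1 library left out, and 1 was lower with DESeq2 (Kif2c) and 0 to 1 with 1 library left out. For intestine against testes 2 were higher with DESeq2, 1 with limma-voom and 0 to 5 with 1 library left out. Lower there were 1 with DESeq2 size factors, 1 with no filter, 2 with DESeq2 and 0 to 2 with 1 library left out, and for K9M 0 to 1. For progenitors against intestine 1 was higher with library size alone, 1 with no filter and 1 to 29 with 1 library left out. With the mouse as a replicate block, the intestine and testes differences stayed at 0 higher and 0 lower for both K36M and K9M, so the block changed no call. For the other settings, counts without a share of all genes given above are not read as a result.

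Of the remaining values of single genes under an alternative, 748 stayed on their side of the threshold, 94 fell short of it and 32 newly passed it. Of the 748, 721 kept their sign and 27, none past the threshold, changed it: 23 in K36M against WT intestine, 3 in testes and 1 in the difference between progenitors and testes. In intestine Mki67, at -0.05 over all libraries, was 0.97 without mouse WT.1476 and 0.72 without mouse K36M.1485, and Top2a, at -0.23, was 1.12 and 0.63. Library size alone moved the median log2 fold change of all genes to -0.12 in K36M against WT testes, -0.11 against K9M testes, 0.16 in K36M against K9M intestine and 0.12 in the difference between progenitors and testes. The causes of these changes were not tested. In intestine members had as few as 2 reads in a library, which limits the precision there. Every comparison rests on 2 mice per group.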

Other observations

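Zwint, a kinetochore protein that is not among the 40 members and was singled out after its values were seen, was called higher in K36M than in WT mice in all 3 tissues. Its log2 fold change was 0.55 ± 0.075 (SE, adjusted p = 0.000846) in progenitors, 2.14 ± 0.19 (SE, adjusted p = 0.00195) in intestine and 0.61 ± 0.12 (SE, adjusted p = 0.0091) in testes (edgeR's quasi-likelihood test, 2 libraries per group). Among the members, Cdc25b and Kif2c were called higher in progenitors and testes, and none was called in intestine.

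Transcripts of elongating spermatids, 8 genes with none at 0 in an intestine library, summed to 40.2 and 16.6 CPM in K36M, 12.8 and 17.7 CPM in K9M and 308 and 14.7 CPM in WT intestine. The value of 308 CPM, in mouse WT.1476, was 1.97% of the level in WT testes, and the other 5 intestine libraries lay between 0.0822% and 0.257%. Their part in the mitosis gene levels of that library was not tested.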
